A study of Bos taurus with 2 samples.

Results

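The report concerns short RNA inserts from cattle liver that end in CCA, the trinucleotide found at the 3′ end of mature tRNAs. Members were selected on their length, their last 3 bases and their reads summed over both libraries. A member is a distinct insert of 15 to 19 nt that ends in CCA and has at least 100 reads. There were 87 members among 6264 distinct inserts of that length ending in CCA, and among 279246 distinct inserts of 15 to 19 nt in all. The members nearest the minimum had 104 and 104 reads, and the closest inserts left out had 98 and 97.

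Liver biopsies came from Angus bulls aged 13 months in lines divergently selected for residual feed intake (RFI), which is the gap between the feed an animal eats and the feed its size and growth predict. Low RFI animals eat less than predicted and high RFI animals eat more. Each line gave 1 small RNA library, a pool of RNA from 13 animals at 1 µg each, so the 2 libraries have no replicate. No difference between the lines could be tested, and line, pool and library preparation cannot be told apart. The low RFI library held 12196461 reads and the high RFI library 14117842. Short inserts, of 15 to 19 nt, took a larger part of the high RFI library (7.88% of its reads with 15 nt or more) than of the low RFI one (4.01%), a difference that covers short inserts of every kind.

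A tRNA carries its amino acid on a CCA that an enzyme adds after transcription, since nuclear and mitochondrial tRNA genes of mammals do not as a rule encode it. Cleavage within the T loop or the T arm of a mature tRNA frees its 3′ end as a fragment that keeps the CCA, called a 3′ tRNA fragment or tRF-3. The bases before the CCA belong to the acceptor stem and the discriminator base, and they differ between tRNAs of different amino acids. Mitochondria have their own tRNAs, which read the mitochondrial code and have stems rich in A and T.

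Members were grouped by their last 12 nt, which gave 40 end groups, 17 of them with 1 member. The tRNA type given to a group is a fit of the 8 bases before the CCA to a known mammalian end and does not name a gene. The fits came from general knowledge of tRNA sequence, and the mitochondrial ends were added after the values had been seen. On this basis 14 groups with 34 members fitted cytosolic tRNAs, 15 groups with 36 members fitted mitochondrial tRNAs, 1 group with 1 member fitted the end of U2 small nuclear RNA, and 10 groups with 16 members had no type.

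The leading members of the cytosolic groups are shown first, because they set what a short tRNA end in liver looks like. The cysteine insert has 17 nt and the others 18 nt. All are read 5′ to 3′ with T for U, and capitals mark the CCA.
Alanine, CACC form: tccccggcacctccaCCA
Alanine, CATC form: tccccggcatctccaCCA
Proline: atcccggacgagcccCCA
Glutamine: atctcggtggaacctCCA
Cysteine: tccgggtgccccctCCA
Leucine: atcccaccgctgccaCCA
Serine: atcctgccgactacgCCA
Tryptophan: atcacgtcggggtcaCCA

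The mitochondrial members follow, because they carry most of the difference between the libraries. The proline ends are given with 1, 2 and 3 CCA units.
Proline, CCA: gtttcttccttgaCCA
Proline, CCACCA: gtttcttccttgaccaCCA
Proline, CCACCACCA: tccttgaccaccaCCA
Phenylalanine: aactccataaacaCCA
Tryptophan: atttacttaattcctgCCA
Cysteine: attctgccggggcttCCA
Valine: tatgaatatcttgaCCA

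The remaining 3 sequences show ends that share the CCA but fitted no tRNA on the list. The list held 3′ ends alone, so having no type does not place a group outside tRNAs or mitochondria.
Group of no type with the most reads: gcggcgggagaaCCA
Other group of no type named here: accaagagccttCCA
U2 small nuclear RNA: caggaacggtgcaCCA

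Summed over all members, the high RFI library held several times more of these inserts than the low RFI library. The members had 5800 low RFI reads and 31818 high RFI reads, or 523 and 2549 RPM, that is, reads per 1000000 reads of 15 nt or longer. That is a ratio of 4.88 in favour of high RFI, with a 95% interval of 4.74 to 5.02. The interval is an exact one for counting error only, because reads without molecular identifiers are not independent molecules. Inserts of 15 to 19 nt that did not end in CCA were 1.92-fold higher in high RFI on the same scale. Counted among inserts of 15 to 19 nt alone, which removes that general excess, the members were 2.48-fold higher in high RFI.

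The minimum of 100 summed reads shaped which ends could become members. In the high RFI library 66 members reached 100 reads, 54 of them without reaching it in low RFI. In the low RFI library 15 did, 3 of them without reaching it in high RFI. Among the mitochondrial members 34 of 36 reached the minimum in high RFI and not in low RFI, so these had to have more reads there. Among the cytosolic members 30 of 34 had at least 50 reads in each library. Counts of groups at 15 to 19 nt are therefore a description of how the members fall. The reads at 20 to 29 nt given further on were not used in choosing them, but share their ends and their libraries.

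Of the 40 end groups, 25 were at least 1.5-fold higher in high RFI and 4 passed that size in low RFI. Among single inserts, 53 of the 87 members were past 1.5-fold in high RFI and 8 in low RFI. The same sizes were passed by 62.1% and 13.8% of the 1069 other inserts of 15 to 19 nt with at least 100 reads, so the share in high RFI was near the background. At 10-fold or more, 44 members and 22 groups were higher in high RFI, against 37.4% of the other inserts. Counted among inserts of 15 to 19 nt alone, those background shares were 51.1% higher in high RFI and 34.2% higher in low RFI. On that scale 25 groups were again past 1.5-fold in high RFI and 13 in low RFI, so of the groups past 1.5-fold 65.8% were higher in high RFI, against 86.2% on the RPM scale. The change of scale moves every log2 ratio alike by 0.98. The median log2 ratio of low over high RFI was -3.34 over the 87 members and -1.66 over the other inserts, and -3.82 over the 40 groups, which sum several inserts.

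The groups are described here by the class of RNA they fitted, with the effect of the read minimum just given. By member reads, all 14 cytosolic groups lay between 2.15-fold higher in low RFI and 1.5-fold higher in high RFI. All 15 mitochondrial groups were between 7.16-fold and 79.9-fold higher in high RFI on the same count. Cytosolic ends held 82.7% of the member reads in low RFI against 14.9% in high RFI. Mitochondrial ends held 11.6% and 49.7%, and ends of no type held 3.60% and 35.2%.

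Cytosolic ends had nearly the same RPM in both libraries. Their members summed to 4794 low RFI reads and 4745 high RFI reads, or 432 and 380 RPM, a ratio of 1.14 (interval 1.09 to 1.18) in favour of low RFI. No cytosolic group was past 1.5-fold higher in high RFI and 3 were past it in low RFI. Of the other inserts of 15 to 19 nt with at least 100 reads, 62.1% and 13.8% were. Counted among inserts of 15 to 19 nt, which scales against a high RFI library with more short inserts, 12 of the 14 were past 1.5-fold higher in low RFI. On that scale 34.2% of the other inserts were.

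Alanine ends were the most abundant of the cytosolic ones. Alanine tRNAs with the CACC form gave 1012 low RFI reads and 988 high RFI reads, or 91.2 and 79.2 RPM. The CATC form, which differs by a single base in the acceptor stem, gave 986 and 808 reads, or 88.9 and 64.7 RPM, 1.37-fold higher in low RFI (1.25 to 1.51). In both forms the 18 nt insert led, with 682 and 588 reads for CACC and 683 and 551 for CATC. Neither alanine group was past 1.5-fold.

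Proline, glutamine and cysteine ends had similar RPM in the libraries. The proline group had 547 low RFI reads and 576 high RFI reads, or 49.3 and 46.1 RPM. For glutamine the reads were 475 and 578, or 42.8 and 46.3 RPM, and for cysteine 464 and 513, or 41.8 and 41.1 RPM. All 3 intervals of the ratio contain 1. Counted among inserts of 15 to 19 nt they were 2.10-fold, 1.82-fold and 2.00-fold higher in low RFI, which turned the direction of glutamine, as it did for tyrosine, 1 leucine end and 2 threonine ends. Cysteine differed from proline and glutamine in its leading length of 17 nt, with 277 and 285 reads, which begins 1 base later than their 18 nt inserts.

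The 3 cytosolic groups past 1.5-fold were higher in low RFI, and each was 1 insert of 18 nt. The leucine insert had 400 low RFI reads and 299 high RFI reads, or 36.1 and 24.0 RPM, a ratio of 1.51 (1.29 to 1.75). For serine the levels were 9.10 and 4.97 RPM, a ratio of 1.83 (1.32 to 2.56). For tryptophan the reads were 86 and 45, a ratio of 2.15 (1.48 to 3.16). The lower interval bound fell below 1.5 in all 3, so the size past the threshold was not resolved at this depth. With the adapter recognised by its first 8 nt instead of 6, the leucine log2 ratio was 0.58, just under the threshold. At the other end, a threonine end with 55 and 93 reads lay at the threshold, 1.5-fold higher in high RFI (1.07 to 2.14), and was not past it once 0.5 read was added to each count.

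Of the 22 labels of cytosolic tRNA types on the list, 10 had an end group. Threonine had 3 ends, alanine and leucine had 2 each, and asparagine, cysteine, glutamine, proline, serine, tryptophan and tyrosine had 1 each. Arginine, aspartate, glutamate, glycine, histidine, isoleucine, lysine, methionine, phenylalanine and valine ends had none among the members. The minimum of 100 reads applied to each distinct insert and not to the summed reads of an end. An absent end therefore had no insert of member length that reached this minimum, or lay outside the listed forms. Its summed reads can still be above the minimum.

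Mitochondrial ends were higher in high RFI throughout. Their members summed to 674 low RFI reads and 15819 high RFI reads, or 60.8 and 1267 RPM, a ratio of 20.9 (19.3 to 22.6). All 15 groups were past 1.5-fold and 12 were past 10-fold by member reads, which the read minimum favoured. Of the other inserts of 15 to 19 nt with at least 100 reads, 62.1% and 37.4% passed those sizes in high RFI. Counted among inserts of 15 to 19 nt, the ratio of the class was 10.6 by member reads. With all reads of 15 to 19 nt with these ends counted, 981 and 17621, the RPM ratio was 16.0. On that count methionine, histidine, isoleucine, valine, leucine and lysine were below 10-fold. The groups fitted 13 of the mitochondrial tRNA types, and the RefSeq gene table (assembly ARS-UCD2.0) lists 22 mitochondrial tRNA genes for cattle.

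Mitochondrial proline ends were the most abundant of the class and came with 1, 2 and 3 CCA units. The CCACCA end had 271 low RFI reads and 6267 high RFI reads, or 24.4 and 502 RPM, a ratio of 20.6 (18.2 to 23.3). Of these, 171 and 3713 reads were the single 19 nt insert shown above. The single CCA end had 61 and 930 reads, a ratio of 13.6 (10.5 to 17.9), and the CCACCACCA end had 4 and 143 reads, a ratio of 31.8 (12.1 to 118). The intervals of these last forms overlap.

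Phenylalanine and tryptophan had the next highest mitochondrial levels. The phenylalanine group had 52 low RFI reads and 2675 high RFI reads, or 4.69 and 214 RPM, a ratio of 45.7 (34.8 to 61.4). The tryptophan group had 19 and 1707 reads, or 1.71 and 137 RPM, a ratio of 79.9 (51.0 to 133). The low RFI counts behind these ratios are small, and other inserts poor in G and C were displaced the same way, as the values by base composition further on show. Cysteine, with 14 and 445 reads, had a ratio of 28.3 (16.7 to 52.1).

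By member reads, the mitochondrial groups least displaced were histidine, valine and lysine. Histidine had 40 low RFI reads and 322 high RFI reads, a ratio of 7.16 (5.14 to 10.2). Valine had 97 and 870 reads, or 8.74 and 69.7 RPM, a ratio of 7.97 (6.46 to 9.94), and lysine had 54 and 508, a ratio of 8.36 (6.31 to 11.3). Their intervals overlap one another and lie below those of proline with CCACCA, phenylalanine and tryptophan. The ranking depends on the read minimum. With all reads of 15 to 19 nt counted, methionine was lowest, with 47 and 204 reads, a ratio of 3.86 (2.80 to 5.42). Histidine then stood at 4.75, isoleucine at 4.79, valine at 7.74, the mitochondrial leucine end at 7.78 and lysine at 8.21. By member reads, 7 and 339, the ratio of that leucine end was 43.0.

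The members of no type had most of their reads in the high RFI library, where 14 of the 16 reached 100 reads without reaching it in low RFI. Together they had 209 low RFI reads and 11202 high RFI reads, a ratio of 47.6 (41.5 to 54.9). All 10 groups were past 10-fold by member reads, which the read minimum favoured. A group with 1 member, of 4 and 162 reads, had a ratio of 36.0. With all reads of 15 to 19 nt with its end counted, 29 and 213, its ratio was 6.53 (4.42 to 9.99). The group with the most reads of any, led by gcggcgggagaaCCA, had 166 low RFI reads and 7081 high RFI reads, or 14.96 and 567 RPM, a ratio of 37.9 (32.5 to 44.5). Its 15 nt insert alone had 44 and 3847 reads. In 3 of the 10 groups the members had no read in low RFI, against 295, 154 and 115 reads in high RFI. Counting every insert of 15 to 19 nt with those ends, low RFI had 1, 1 and 3 reads and high RFI 417, 291 and 185, and for the last the ratio was 54.8 (18.5 to 268).

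In the group led by accaagagccttCCA the last 12 bases were not always the end of an insert. They ended inserts of 12 to 29 nt in 19 low RFI reads and 3223 high RFI reads, and stood inside such inserts in 36 and 712. At 15 to 19 nt its members had 7 low RFI reads and 2174 high RFI reads, a ratio of 276 (134 to 687). Tags of 35 nt in which no adapter was found, whose inserts are longer than 29 nt or carry a read error, held the same 12 bases in 5251 reads of low RFI and 1349 of high RFI. The short and the long reads with these 12 bases thus ran in opposite directions between the libraries. Tags with no adapter also held the ends of 2 other groups of no type in more low RFI reads, at 546 against 274 and 351 against 238. In 2 groups of no type the last 12 bases were at the insert end in only 27.5% and 32.6% of the insert reads that held them. The share was lower still, 17.6%, for mitochondrial proline with a single CCA. Its 12 bases stood inside inserts in 679 low RFI reads and 14441 high RFI reads. These include proline inserts that go on from the first CCA to CCACCA or CCACCACCA.

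The U2 small nuclear RNA end was the member group most displaced towards low RFI. U2 is an RNA of the spliceosome, which removes introns. Its 1 insert, of 16 nt, had 123 low RFI reads and 52 high RFI reads, or 11.1 and 4.17 RPM, a ratio of 2.66 (1.91 to 3.75) in favour of low RFI. Only inserts of 15 to 19 nt chose this group, and its inserts of 20 to 29 nt had 1346 and 573 reads, 2.64-fold higher in low RFI (2.39 to 2.92).

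Inserts of 20 to 29 nt with the same last 12 nt were not used in choosing the members. For the cytosolic ends there were 12256 such reads in low RFI against 6074 in high RFI, or 1105 and 487 RPM, 2.27-fold higher in low RFI (2.20 to 2.34). All 14 cytosolic groups were past 1.5-fold higher in low RFI at this length. Other 12 nt ends with at least 100 reads at 20 to 29 nt and at least 10 in each library passed that size in 45.6% of 3124 cases. The CATC alanine end, with 1714 and 570 reads, was 3.38-fold higher in low RFI (interval 3.08 to 3.73). The ratio was smaller for the CACC end, with 1675 and 892 reads, at 2.11 (1.95 to 2.29).

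Mitochondrial ends ran the other way at 20 to 29 nt, by less than at 15 to 19 nt. Their 20 to 29 nt reads were 3248 low RFI reads and 16160 high RFI reads, 4.42-fold higher in high RFI. In 13 of the 15 groups the ratio was past 1.5-fold higher in high RFI, against 20.4% of the 3124 other ends. The median over the 15 groups was 6.58, and over the other ends the median ratio of high over low RFI was 0.708. These ends became groups mostly through high RFI reads of 15 to 19 nt. The other ends were not chosen that way, so these comparisons are not like for like. Tryptophan stayed highest, with 61 and 1430 reads, a ratio of 20.8 (16.1 to 27.4).

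Phenylalanine and proline with a single CCA were the 2 mitochondrial groups not past 1.5-fold at 20 to 29 nt. The phenylalanine end had 420 low RFI reads and 428 high RFI reads at 20 to 29 nt, a ratio of 0.91 (0.79 to 1.04). At 15 to 19 nt, all reads with that end counted, its ratio was 24.2 (19.8 to 29.8). Proline with a single CCA had 785 and 1131 reads at 20 to 29 nt, a ratio of 1.28 (1.17 to 1.40), whereas proline with CCACCA had 187 and 3370, a ratio of 16.0 (13.8 to 18.7). The difference between the libraries in the phenylalanine end was thus seen in the short inserts and not in the long ones.

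Cytosolic tRNA ends peaked at 18 and 22 nt in both libraries, and the balance shifted to the short form in high RFI. Inserts of 22 nt made up 44.7% of cytosolic end reads of 15 to 29 nt in low RFI against 33.8% in high RFI. Inserts of 18 nt made up 16.3% and 22.8%. These correspond to cuts 22 and 18 bases from the end of the CCA, as in the 22 nt alanine form below, which had 1392 low RFI reads and 756 high RFI reads, 0.483 times as high in high RFI (0.441 to 0.528).
Alanine, CACC form, 22 nt: tcaatccccggcacctccaCCA
Alanine, CACC form, 18 nt: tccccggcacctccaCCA

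Of all reads of 15 to 29 nt with a cytosolic end, those of 15 to 19 nt made up 33.9% in low RFI against 49.9% in high RFI, and of those with a mitochondrial end 23.2% against 52.2%. Among inserts outside the end groups the shares were 7.19% and 11.8%. The share was higher in high RFI in 14 of 14 cytosolic groups and 14 of 15 mitochondrial groups, isoleucine being the exception, against 50.6% of 3768 other 12 nt ends. Members were chosen on reads of 15 to 19 nt, so this share is not independent of that choice, least of all for mitochondrial ends.

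At 22 nt lay 6.62% of the mitochondrial end reads in low RFI against 5.94% in high RFI, smaller shares than for cytosolic ends. Single ends departed from this, with 23.8% of the lysine reads and 46.8% of the CCACCACCA proline reads at 22 nt in high RFI. The lengths of the class were spread, and the most frequent long form differed between types. The 24 nt methionine form had 61 low RFI reads and 1326 high RFI reads, a ratio of 19.3 (14.9 to 25.4). All methionine reads of 20 to 29 nt were less displaced, with 413 and 1709 reads, a ratio of 3.68 (3.30 to 4.11). The 27 nt proline form with CCACCA had 66 and 1700 reads, a ratio of 22.9 (17.9 to 29.7). The 27 nt proline form with a single CCA had 223 and 228 reads, a ratio of 0.91 (0.75 to 1.10).
Methionine, mitochondrial, 24 nt: gtttatatccttcccgtactaCCA
Proline, mitochondrial, 27 nt, CCACCA: agactgcagtttcttccttgaccaCCA
Proline, mitochondrial, 27 nt, single CCA: gtgagactgcagtttcttccttgaCCA

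The number of CCA units on mitochondrial proline ends differed between the libraries. Inserts of 12 to 29 nt holding the 12 bases tttcttccttga numbered 1611 low RFI reads and 19651 high RFI reads. After these bases the insert ended in a single CCA in 53.1% of low RFI reads and 10.7% of high RFI reads. It ended in CCACCA in 25.1% and 40.3%, and in CCACCACCA in 2.73% and 4.50%. Ends cut short at CC made up 6.08% and 21.0%. The exact intervals of these shares do not overlap between the libraries, and the intervals carry counting error only. The split also depended on insert length. At 15 to 19 nt the CCACCA end had 274 low RFI reads and 6292 high RFI reads, and the single CCA end 73 and 974. At 20 to 29 nt the CCACCA end had 187 and 3370, and the single CCA end 785 and 1131. Inserts that a further CCA unit took past 29 nt were not counted.

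A doubled CCA was also frequent on the mitochondrial alanine end. After its 12 bases a single CCA stood in 61.7% of 133 reads in low RFI against 22.4% of 1907 in high RFI, and CCACCA in 17.3% and 34.1%. On the methionine end the doubled form went the other way, at 5.43% of 479 reads in low RFI against 0.220% of 2273 in high RFI. Phenylalanine, tryptophan and lysine showed no doubled CCA in 558, 88 and 279 low RFI reads or in 3622, 3658 and 2447 high RFI reads. For phenylalanine the exact upper bound is 0.659% in low RFI against 0.102% in high RFI. The mitochondrial tyrosine group also ends in CCACCA, but its single CCA followed the 12 bases ctctttttacca, so there the upstream CCA was counted as part of the tRNA.

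Incomplete ends varied by type. The cytosolic tyrosine end was complete in 80.3% of 1476 reads in low RFI against 59.7% of 1120 in high RFI, and stopped after C or CC in 11.99% and 27.6%. The cytosolic proline end was complete in 93.5% and 90.0% of reads. The mitochondrial valine end stopped at CC in 53.3% of 394 low RFI reads and 46.5% of 3578 high RFI reads, more often than it was complete (42.4% and 38.1%). U2 is not a tRNA, so its ends are not called incomplete here. They stood at CC in 41.1% and 48.1% of reads. For the no type group with the most reads, its 12 bases were followed by CCA in only 34.7% of 580 reads in low RFI against 36.7% of 20249 in high RFI.

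Longer inserts with cytosolic ends held the letters of the T loop upstream of the members. The T loop of most tRNAs holds the letters TTCNA, where N is any base, with the A at position 58 of the tRNA. That puts the A 19 bases from the 3′ end, just upstream of an 18 nt insert. Among inserts of 23 to 29 nt with cytosolic ends, read on the sense strand only, TTCNA stood at this place in 31.5% of 1580 reads in low RFI against 27.6% of 678 in high RFI. Outside the end groups the shares were 0.314% and 0.211%. TTC stood there with a base other than A in another 50.8% and 55.8% of cytosolic reads. Mitochondrial ends, whose T loops vary in sequence, held TTCNA in 2.79% and 5.08%.

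The base 19 from the end, next to the 18 nt inserts, was often not A in the cytosolic ends. It was A in 39.3% of 11654 reads in low RFI against 36.7% of 5822 in high RFI, T in 28.9% and 29.8%, G in 18.3% and 18.5%, and C in the rest. Position 58 is known to carry 1-methyladenosine in many tRNAs, a base that reverse transcriptase can misread. The types differed more than the libraries did. The CACC alanine end had A in 95.7% of 1663 reads in low RFI, the CATC alanine end in 63.1% of 1672, the leucine end shown above in 34.7% of 729 and the tyrosine end in 7.83% of 869. No genome sequence was used, so a read base cannot be set against the gene's own base.

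Base composition moved with the difference between cytosolic and mitochondrial ends. Over the other inserts of 15 to 19 nt with at least 100 reads, the median log2 ratio of low over high RFI was -5.34 below 35% GC (158 inserts) and 0.10 at 65% GC or more (128 inserts). The cytosolic members lay at the GC-rich end, with 33 of 34 at 55% or more, and the mitochondrial members at the other, with 33 of 36 below 55%. Below 35% GC the median of 8 mitochondrial members was -3.44, less displaced than the other inserts. From 35% to 45% it was -4.54 for 14 mitochondrial members and -4.21 for 279 other inserts. Within the range of 45% to 55% the medians were -4.11 for 11 mitochondrial members and -1.49 for 292 other inserts, and 1 cytosolic member stood at -0.02. Between 55% and 65% they were -4.83 for 3 mitochondrial members, 0.22 for 9 cytosolic members and -0.17 for 212 other inserts. At 20 to 29 nt, where 9 bases before the last 3 had from 40% to under 60% GC, the median ratio of high over low RFI was 6.58 for 7 mitochondrial ends, 0.480 for 4 cytosolic ends and 0.715 for 1635 other ends. At 60% GC or more this ratio had a median of 0.443 for 9 cytosolic ends and 0.552 for 732 other ends, and was 7.47 for 1 mitochondrial end. Below 40% its median was 6.36 for 7 mitochondrial ends and 0.992 for 757 other ends. The part of base composition in the difference was not tested.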

How the data were processed

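The deposited files give, per the labels and the values, unnormalized counts for each distinct tag of 35 nt in 2 libraries, with 3′ adapter sequence left on the tags. The submitters' processing notes list Bowtie without a role. Genome builds are not given in the sources used here. Adapter sequence was cut at the leftmost exact match to its first 6 nt, allowing mismatches at up to 20% of its later bases. Levels are reads per 1000000 reads of 15 nt or longer (RPM), reads with no adapter included. Ratios carry exact 95% conditional binomial intervals and shares exact Clopper-Pearson intervals (scipy 1.17.1). With 1 library per line there was no test. A ratio counts as past 1.5-fold after 0.5 read is added to each count. The members and lists were chosen with earlier results of these data known. Named groups were the 12 with the most reads and, among groups with at least 10 reads in each library, the 5 most displaced in each direction by the interval bound nearest to 1. Other groups named to show counts, doubled CCA, length or extremes were chosen after their values were seen. The tRNA ends came from general knowledge, the mitochondrial and U2 ends after the values were seen. Alternative scalings used TMM from edgeR 4.0.16 and size factors from DESeq2 1.42.0, run in R 4.3.3. The cutting and counting code was tested on simulated data.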

Additional observations from a re-analysis of the deposited data

How the results depend on the processing

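The members together stayed higher in high RFI under every alternative tried, with a log2 ratio of low over high RFI of -2.29 as reported, from -1.02 with DESeq2 size factors to -2.92 with at least 1000 reads per member, -1.77 with no minimum and, chosen after seeing the data, -1.96 without the group with the most reads. The count of end groups past the threshold in low RFI was 4 as reported, 13 counted among inserts of 15 to 19 nt, 15 with TMM, 15 with DESeq2 size factors, 7 with no minimum per member and 2 at 2-fold. The 3 scalings move every log2 ratio by 0.98, 1.18 and 1.27. The count in high RFI was 25 as reported and under these 3 scalings, so the share of called groups higher in high RFI, 86.2% as reported, was 65.8% among inserts of 15 to 19 nt and 62.5% with TMM and with DESeq2 because the low RFI count differed. The glutamine group changed direction, with a log2 ratio of 0.86 among inserts of 15 to 19 nt, 1.06 with TMM and 1.16 with DESeq2 size factors. Over 17 named groups and 85 alternatives, 69 kept their direction and side of the threshold, 12 came to pass it, 3 reversed (glutamine) and 1 fell below it, leucine at 0.58 with an adapter start of 8 nt. Insert length and CCA completeness kept their direction under the alternatives run. Depth limits the low RFI side most, where 6 of the 87 members had no read. No paired analysis was possible because each line has 1 library and the result comes from no test.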
